A study of Mus musculus with 10 samples.

Results

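The cell cycle and DNA replication genes were examined in the pancreas of newborn mice, as 58 of the 24062 genes counted in each library. The members were taken by symbol from a fixed list and fall into 26 genes that act at the start of or during S phase, 30 genes that act in G2 and mitosis (G2/M), and the D cyclins Ccnd1 and Ccnd2. All 58 were listed in the counts, and all 58 passed the filter of at least 5 counts in every library that 13882 genes passed. C57BL/6 mice at postnatal day 5 (P5) were compared, 5 WT and 5 KSR23, with 1 library of whole pancreas per mouse. KSR23 mice carry R23, a knock-in of both IL-23 subunits (p19 and p40) in the ROSA26 locus that Cre switches on, together with Cre under the keratin 14 promoter, so that keratinocytes rather than pancreatic cells are the intended source of IL-23. The authors call the controls littermates in their results, and their reporting summary says that littermates were usually used. The labels name no sex. Il23a, which encodes p19, had between 0.857 and 1.21 CPM (counts scaled to a common library size) in the KSR23 mice and between 0.0373 and 0.316 CPM in the WT mice, without overlap. Il12b, which encodes p40, was scarcer and overlapped, with 0.0889 to 0.327 CPM in the KSR23 mice and 0 to 0.240 CPM in the WT mice.

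A dividing cell passes through G1, copies its DNA in S phase and separates the copies in mitosis. Cyclin D with Cdk4 or Cdk6 moves a cell through G1, after which cyclin E with Cdk2 and the E2F factors turn on the genes of replication. Licensing loads the ring of Mcm2 to Mcm7 onto DNA, Cdc45 and the GINS proteins turn it into the active helicase, and the polymerases and the enzymes that make deoxynucleotides do the copying. Genes of G2/M are switched on later, through FoxM1 and the MuvB complex, and encode Cdk1 with cyclins A and B, the kinetochore, the spindle motors and the machinery of cytokinesis. In the newborn pancreas, acinar, duct and endocrine cells still divide as the organ grows. In RNA of whole tissue, fewer cells in a phase and less RNA per cell cannot be told apart.

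The promoters of both classes are shown first because they hold different sequence words. Promoter windows from RefSeq on GRCm38.p6, 250 bases before to 50 bases after the start, matched 46 of the 58 members, 21 of S phase and 25 of G2/M. Each window was searched on both strands for 3 kinds of word. The cell cycle genes homology region (CHR), TTTGAA, is the element that MuvB complexes bind. The CCAAT box, CCAAT, is bound by NF-Y. The E2F words searched were TTCCCGC or TTCGCGC or TTGCCGC or TTGGCGC. Where an E2F word and a CCAAT box overlap, both were counted. The 150 bases upstream of the start follow for 4 G2/M genes whose RNA fell and that hold a CHR, for Mcm6 as the licensing gene with the most E2F words, and for Tyms as an S phase gene that fell, with every match of the 3 kinds in capitals.

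Mki67 (chr7:135716380-135716529, minus strand): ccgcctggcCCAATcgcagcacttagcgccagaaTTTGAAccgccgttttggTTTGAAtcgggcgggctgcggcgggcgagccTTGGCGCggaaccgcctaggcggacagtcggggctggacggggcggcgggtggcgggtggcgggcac
Cdk1 (chr10:69352913-69353062, minus strand): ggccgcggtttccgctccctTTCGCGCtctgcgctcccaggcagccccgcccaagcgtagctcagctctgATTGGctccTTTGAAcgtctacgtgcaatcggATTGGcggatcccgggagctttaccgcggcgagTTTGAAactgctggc
Top2a (chr11:99024190-99024339, minus strand): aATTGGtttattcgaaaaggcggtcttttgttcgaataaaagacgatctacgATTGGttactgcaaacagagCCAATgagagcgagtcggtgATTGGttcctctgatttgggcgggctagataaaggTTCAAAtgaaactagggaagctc
Kif11 (chr19:37376232-37376381, plus strand): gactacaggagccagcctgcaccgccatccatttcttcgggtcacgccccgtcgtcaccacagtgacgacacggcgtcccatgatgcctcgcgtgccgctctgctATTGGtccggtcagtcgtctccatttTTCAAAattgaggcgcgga
Mcm6 (chr1:128359706-128359855, minus strand): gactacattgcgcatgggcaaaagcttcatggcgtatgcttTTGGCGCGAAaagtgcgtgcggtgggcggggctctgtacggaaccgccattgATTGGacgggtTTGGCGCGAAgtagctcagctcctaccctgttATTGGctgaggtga
Tyms (chr5:30073626-30073775, minus strand): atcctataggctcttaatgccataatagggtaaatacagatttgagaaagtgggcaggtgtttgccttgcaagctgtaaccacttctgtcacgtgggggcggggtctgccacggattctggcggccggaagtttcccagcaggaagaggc

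In these stretches ATTGG is CCAAT and TTCAAA is the CHR read from the other strand, and each run of capitals of Mcm6 that begins with TTGG holds a pair of overlapping E2F words. Over the whole windows, a CHR was found in 18 of the 25 G2/M promoters (72.0%), in 3 of the 21 S phase promoters (14.3%) and in 18.1% of all 27025 promoters. An E2F word was found in 11 of 21 S phase promoters (52.4%), 3 of 25 G2/M promoters (12.0%) and 9.69% of all promoters. The CCAAT box was frequent in both classes, in 80.0% of G2/M and 61.9% of S phase promoters against 37.9% of all promoters. A CHR and a CCAAT box stood together in 17 of 25 G2/M promoters (68.0%) and in 7.12% of all promoters. Within G2/M, the median log2 FC (log2 of the fold change, KSR23 over WT) was -0.41 for the 18 genes with a CHR and -0.47 for the 7 without. Here "without" means without the word TTTGAA, the only form searched. Of the 18 genes, 12 were lower at an adjusted p under 0.05 in edgeR's quasi-likelihood test, as were 6 of the 7 and 14.8% of all genes tested. No word was found in the promoter of Tyms, which says only that these letters are not in this window.

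Between 26830235 and 33189132 reads fell on genes in the WT libraries, and between 16715976 and 57784136 in the KSR23 libraries, with KSR23 replicate 3 the smallest. The share of alignments that were not unique was 49.6 to 53.7% in WT mice and 38.5 to 42.5% in KSR23 mice. WT replicates 1 and 2 stood apart from the other WT mice in Reg3b, an acute phase lectin, with 692 and 729 CPM against 4.73 to 14.6 CPM, and the KSR23 mice had at least 14214 CPM. Member counts ran from 68 for Ccne2 in KSR23 replicate 1 to 8282 for Ccnd2 in KSR23 replicate 5, with a median of 741. The part of counting error in the spread between mice was not tested. The pancreas was recognisable by its markers in every mouse. The summed level of 8 acinar markers was 168895 to 182615 CPM in WT and 107248 to 134463 CPM in KSR23 mice, and 6 of the 8 were lower. Of 8 duct markers, 7 were higher, with sums of 1290 to 1396 CPM in WT and 2038 to 2207 CPM in KSR23 mice. Of 8 endocrine markers 5 were lower and 1 higher, of 8 stromal markers 1 was lower and 1 higher, and of 8 endothelial markers 2 were lower and 3 higher. The part of these shifts between cell types in the values of the cell cycle genes was not tested.

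RNA of most G2/M genes fell in the KSR23 pancreas, and most S phase genes did not pass the test. Of the 30 G2/M genes, 21 were lower at an adjusted p under 0.05 in edgeR's quasi-likelihood test and none was higher. Of all genes tested, 14.8% were lower and 16.2% higher. The 30 genes had a median log2 FC of -0.41, against -0.01 for all genes, and 29 of them had a log2 FC below 0. Of the 26 S phase genes, 5 were lower (19.2%) and none was higher. Their median log2 FC was -0.04, with 14 genes below 0 and 12 above, and 20 of the 26 were below 0 without KSR23 replicate 3. The likelihood ratio test and DESeq2 gave no higher gene in either class either, and at an unadjusted p under 0.05 the one higher gene was Mcm7. DESeq2 gave 18 lower G2/M genes and 5 lower S phase genes, where 2267 of 13882 genes were lower and 2385 higher. Of the 30 G2/M genes, 8 were lower in all 19 alternatives, as were 2 of the 26 S phase genes. How many of all genes were lower in every alternative was not counted, so these 2 counts have no background. When libraries were scaled by their totals alone, 9 G2/M and 2 S phase genes were lower, where 8.38% of all genes were, and the S phase genes Mcm3 and Mcm7 were higher. The G2/M count also fell by more than 1.5 times when WT replicate 4 (13 genes), WT replicate 5 (12), KSR23 replicate 1 (11) or KSR23 replicate 4 (11) was left out, and when WT replicates 1 and 2 were both left out (9). The S phase count was 2 without WT replicate 2, WT replicate 4, KSR23 replicate 1, KSR23 replicate 4 or both WT replicates 1 and 2, and 3 without KSR23 replicate 5. Of all genes, 1722 of 13935 were lower without WT replicate 2, 1651 of 13907 without WT replicate 4 and 1973 of 13934 without WT replicate 5. It was 1844 of 13895, 1696 of 13893 and 1740 of 13895 without KSR23 replicates 1, 4 and 5, and 1536 of 13982 without WT replicates 1 and 2. The difference between both medians (S phase minus G2/M) was 0.37 as reported and lay between 0.30 and 0.41 in all 19 alternatives. A change of scaling shifts both medians alike, so such settings could hardly move this difference. Both ends of the range came from fits with 1 mouse left out.

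**Figure D1:**
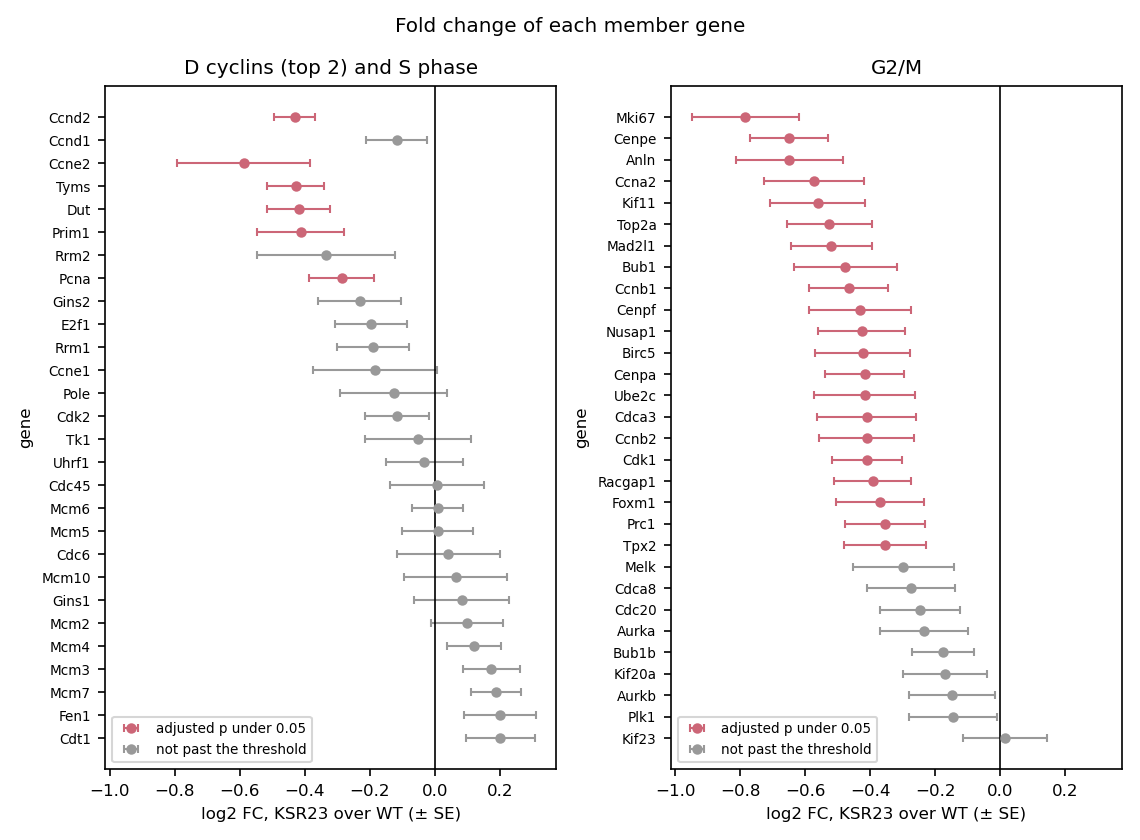
Log2 FC of each member gene, KSR23 over WT, with bars of 1 SE and 5 mice per group; the left panel holds the D cyclins and the S phase genes and the right panel the G2/M genes, with genes past an adjusted p of 0.05 in red. In the right panel 29 of 30 points lie left of 0, and in the left panel 12 of the 26 S phase points lie right of it.

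**Figure D2:**
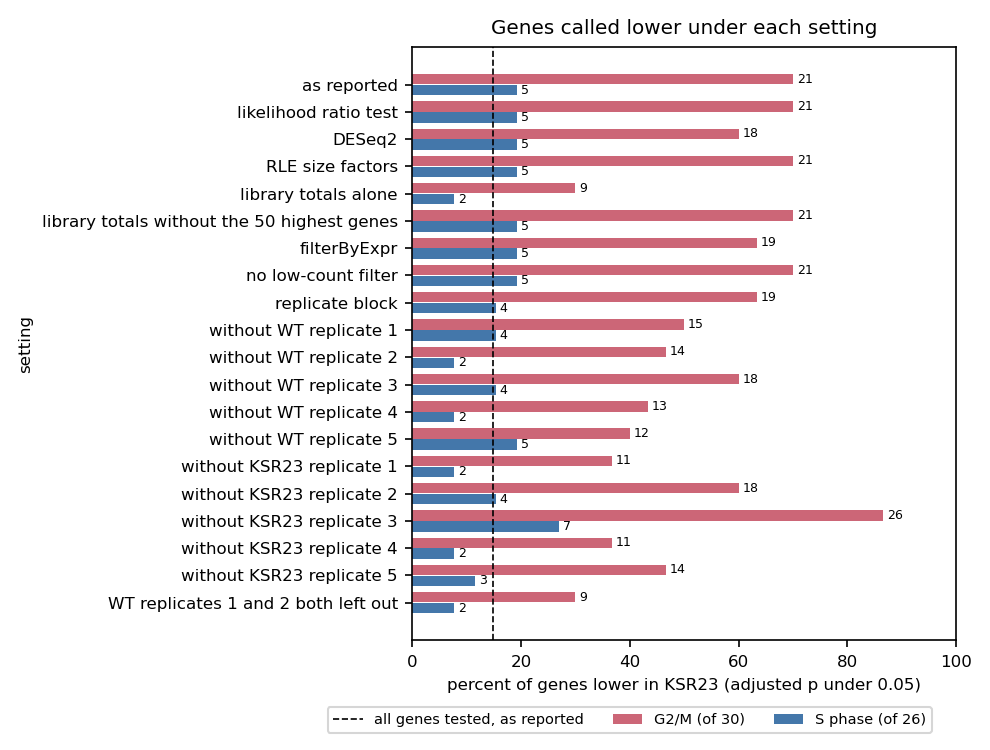
Percent of G2/M (red) and S phase (blue) genes lower in KSR23 mice under each analysis setting, with the number of genes beside each bar and the percent of all genes lower in the fit as reported as a dashed line. The G2/M count ranged from 9 to 26 over the alternatives and the S phase count from 2 to 7.

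Mki67 encodes Ki-67, the protein that coats mitotic chromosomes and is used to stain dividing cells (chr7:135689784-135716361 on GRCm38, as all positions here). It had 47.7, 49.3, 53.9, 55.5 and 60.6 CPM in WT replicates 1 to 5 and 23.7, 37.3, 48.8, 23.4 and 23.5 CPM in KSR23 replicates 1 to 5. KSR23 replicate 3 lay within the WT range, and the other 4 KSR23 mice lay below it. Means were 53.4 ± 5.16 CPM (WT) and 31.3 ± 11.4 CPM (KSR23), each over 5 mice with its SD. Its log2 FC of -0.78 (SE 0.165) was the largest fall among the 58 members, with an adjusted p of 0.00152 in edgeR's test and p = 0.0159 in a two-sided exact permutation test. Top2a encodes topoisomerase II alpha, which untangles sister chromatids (chr11:98992943-99024189). It had 53.3, 55.2, 53.4, 65.2 and 63.8 CPM in the WT mice against 28.9, 46.8, 54.5, 32.8 and 40.0 CPM in the KSR23 mice. KSR23 replicate 3 again overlapped the WT mice and no other did. Its log2 FC was -0.53 (SE 0.131, edgeR adjusted p = 0.00542, exact permutation p = 0.0238). Both genes were lower in all 19 alternatives.

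Cdk1, the kinase that drives entry into mitosis (chr10:69335146-69352938), had 44.9, 45.4, 45.5, 41.4 and 45.0 CPM in the WT mice against 24.1, 34.5, 42.6, 30.6 and 35.9 CPM in the KSR23 mice. The WT mice lay close together, and KSR23 replicate 3 was the KSR23 mouse that reached them. The fitted log2 FC was -0.41 (SE 0.109, edgeR adjusted p = 0.00803, exact permutation p = 0.0159). Ccnb1, cyclin B1, the partner of Cdk1 (chr13:100778650-100786570), had 24.1, 29.8, 21.6, 25.4 and 23.8 CPM in the WT mice against 13.9, 18.8, 23.1, 15.4 and 19.6 CPM in the KSR23 mice. Its log2 FC was -0.47 (SE 0.121, edgeR adjusted p = 0.00712, exact permutation p = 0.0159), with overlap through KSR23 replicate 3. Of its 75-base windows, 64.8% occur in no other annotated gene, since processed copies of it exist, so reads may have been lost. Ccna2, cyclin A2, which acts from S phase into mitosis (chr3:36564865-36572150), had 45.6, 52.8, 49.3, 49.02 and 49.9 CPM in the WT mice against 19.9, 35.1, 49.3, 27.9 and 34.7 CPM in the KSR23 mice. KSR23 replicate 3 lay within the WT range and the other KSR23 mice well below it. The log2 FC was -0.57 (SE 0.154, edgeR adjusted p = 0.00868, exact permutation p = 0.0317). Exosc9 on the opposite strand overlaps 12.5% of the exonic bases of Ccna2, and the strand setting of the counting is not given in the sources used here. Larger overlaps of this kind exist for Ccne2 (17.4%, with Ints8), Ube2c (22.8%, Tnnc2), Ccnd1 (23.4%, LTO1), Kif20a (29.3%, Cdc23) and Gins2.

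Of the 12 mitotic kinases, cyclins and control genes, 7 were lower and 5 did not pass the test. Beside the 3 above, the lower ones were Ccnb2 (log2 FC -0.41), the ubiquitin-conjugating enzyme gene Ube2c (-0.42), the transcription factor gene Foxm1 (-0.37) and Cdca3 (-0.41). Their calls depended on the setting, with Ube2c lower in 6, Cdca3 in 8, Ccnb2 in 9 and Foxm1 in 11 of the 19 alternatives, and DESeq2 gave 5 lower genes of the 12. The kinase genes Plk1, Aurka, Aurkb and Melk and the anaphase activator gene Cdc20 had a log2 FC between -0.30 and -0.15 and adjusted p-values between 0.134 and 0.446. All 5 had a KSR23 mean below the WT mean.

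Cenpe encodes a kinesin that carries chromosomes to the spindle equator (chr3:135212537-135273611). It had 18.3, 21.4, 19.2, 20.4 and 23.8 CPM in the WT mice against 12.0, 13.0, 18.1, 11.1 and 12.1 CPM in the KSR23 mice. No KSR23 mouse reached the WT range, though KSR23 replicate 3 came just under its lower end. The fitted log2 FC was -0.65 (SE 0.120, edgeR adjusted p = 0.000481, exact permutation p = 0.00794, the smallest that 5 mice against 5 allow). Mad2l1, a spindle checkpoint gene, was the other G2/M gene without overlap, with 20.9 to 26.1 CPM in WT and 11.5 to 20.8 CPM in KSR23 mice. All KSR23 mice lay below all WT mice for 8.74% of the genes tested, against 2 of the 30 G2/M genes. Of the 8 checkpoint and kinetochore genes, 6 were lower (Bub1, Mad2l1, Cenpa, Cenpe, Cenpf and Birc5), and Bub1b and Cdca8 had log2 FCs of -0.18 and -0.28 that did not pass. Bub1, Cenpf and Birc5 were lower in 11 of the 19 alternatives each, and DESeq2 gave 5 lower genes of the 8.

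Anln encodes anillin, a scaffold of the contractile ring (chr9:22332012-22389188). It had 17.8, 20.0, 18.1, 24.6 and 21.5 CPM in the WT mice against 8.71, 17.8, 17.1, 10.3 and 11.8 CPM in the KSR23 mice. KSR23 replicate 2 just reached the lowest WT mouse and the others did not. The log2 FC was -0.65 (SE 0.164, edgeR adjusted p = 0.00603, exact permutation p = 0.0159). Kif11, the motor that pushes spindle poles apart (chr19:37376403-37421859), had 18.6, 29.1, 21.3, 28.3 and 26.1 CPM in the WT mice against 11.8, 17.01, 22.3, 14.9 and 18.1 CPM in the KSR23 mice. Here WT replicate 1 was low among the WT mice and only KSR23 replicate 3 exceeded it. Its log2 FC came to -0.56 (SE 0.146, edgeR adjusted p = 0.00725, exact permutation p = 0.0317). Of the 8 spindle and cytokinesis genes, 6 were lower, the other 4 being Tpx2, Nusap1, Prc1 and Racgap1 with log2 FCs from -0.43 to -0.35. Of these, Tpx2 was lower in 8, Prc1 in 12, Nusap1 in 14 and Racgap1 in 17 of the 19 alternatives. The kinesin genes Kif20a (log2 FC -0.17) and Kif23 (0.01) did not pass, and Kif23 was the G2/M gene with a log2 FC above 0.

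**Figure D3:**
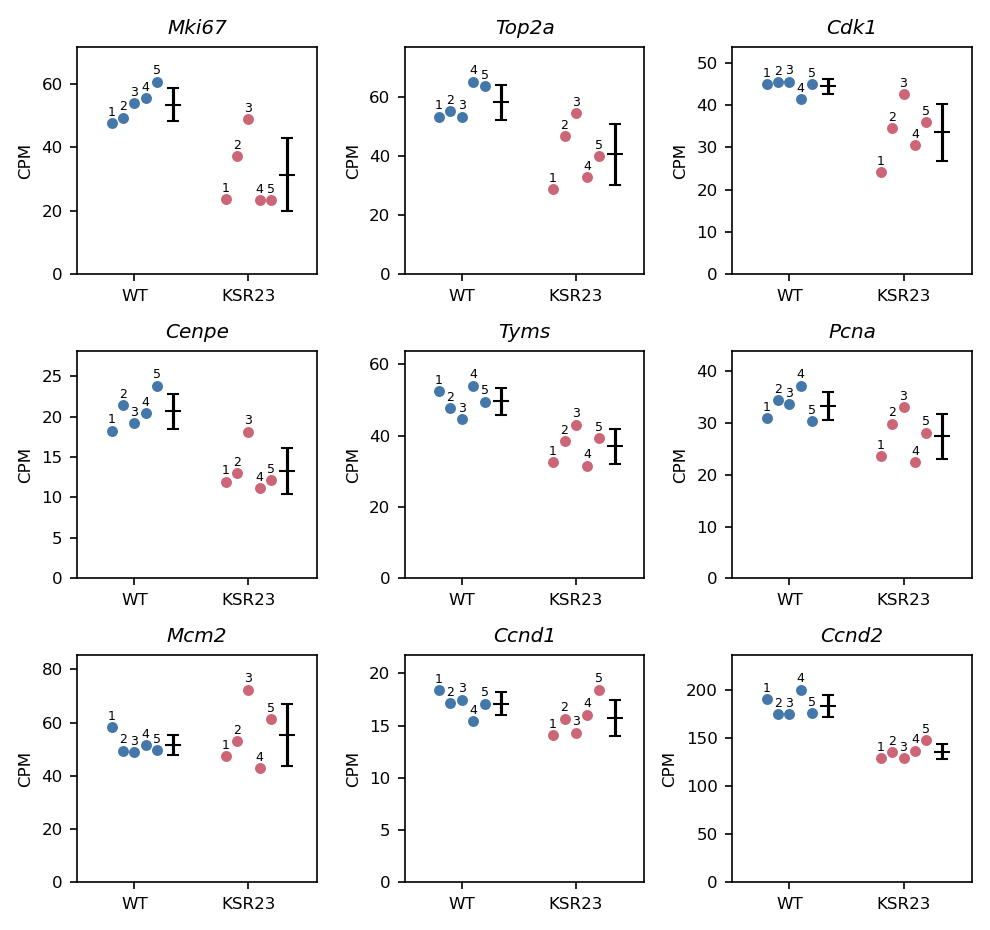
CPM of 9 member genes in each mouse, numbered by replicate, with the group mean and SD beside the points. KSR23 replicate 3 is the highest KSR23 mouse for the first 7 genes, and Ccnd2 separates the groups with no overlap.

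No licensing or helicase gene of the S phase class passed the test. None of the 12 was lower or higher in edgeR's quasi-likelihood test, the likelihood ratio test or DESeq2, where 14.8% of all genes were lower and 16.2% higher in the first of these. With libraries scaled by their totals alone, Mcm3 and Mcm7 were higher (edgeR adjusted p = 0.0344 and 0.0201). Of the 12, 1 passed an unadjusted p of 0.05, and 11 had a log2 FC above 0, with a median of 0.07. Many of these signs rested on KSR23 replicate 3. Without that library Cdc6 (-0.12), Mcm2, Mcm5 (-0.09), Mcm6 (-0.05), Mcm10 (-0.04) and Cdc45 (-0.11) had a log2 FC below 0, as did Gins2. Cdt1, Mcm3, Mcm4, Mcm7 and Gins1 stayed above 0. Mcm2, a subunit of the helicase ring (chr6:88883474-88898780), had 58.2, 49.5, 48.996, 51.6 and 49.6 CPM in the WT mice against 47.3, 52.9, 72.3, 42.9 and 61.4 CPM in the KSR23 mice. The KSR23 mice lay on both sides of the WT range. The log2 FC was 0.10 (SE 0.111, edgeR adjusted p = 0.537, exact permutation p = 0.603), and it was -0.010 without KSR23 replicate 3. Mcm6, the most abundant of the set, had 103.9 ± 3.15 CPM in WT and 104.6 ± 12.9 CPM in KSR23 mice. Its log2 FC was 0.01, with an approximate 95% interval from -0.14 to 0.16. Mcm7 was higher in every KSR23 mouse (41.63 to 51.8 CPM) than in every WT mouse (34.8 to 41.60 CPM), as were 10.7% of all genes tested, but its log2 FC of 0.19 had an edgeR adjusted p of 0.0731. Of the windows of Mcm7, 79.5% are unique. The other log2 FCs of the set ranged from -0.23 for Gins2, which overlaps Gse1 on the opposite strand over 67.3% of its exonic bases, to 0.20 for Cdt1.

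The 5 lower S phase genes (19.2% of 26, against 14.8% of all genes) were 2 of 5 nucleotide supply genes, 2 of 5 DNA synthesis genes and 1 of 4 G1/S regulators. Tyms, thymidylate synthase, which makes dTMP (chr5:30058202-30073617), had 52.5, 47.7, 44.5, 54.0 and 49.5 CPM in the WT mice against 32.5, 38.5, 43.1, 31.5 and 39.3 CPM in the KSR23 mice. It was the one S phase gene whose KSR23 mice all lay below the WT range. This gave a log2 FC of -0.43 (SE 0.0881, edgeR adjusted p = 0.00128, exact permutation p = 0.00794). Dut, the dUTPase that keeps uracil out of DNA (chr2:125247190-125258608), had 32.6, 29.0, 27.9, 31.8 and 27.5 CPM in the WT mice against 18.9, 22.7, 28.0, 21.0 and 21.3 CPM in the KSR23 mice. Its groups overlapped through KSR23 replicate 3. The log2 FC was -0.42 (SE 0.0961, edgeR adjusted p = 0.00303, exact permutation p = 0.0238). Tyms and Dut were the S phase genes lower in all 19 alternatives. The ribonucleotide reductase genes Rrm1 and Rrm2 had log2 FCs of -0.19 and -0.33 and did not pass. Rrm2 spread widely, from 32.8 to 106.9 CPM in the KSR23 mice against 64.1 to 82.9 CPM in the WT mice. Thymidine kinase 1, Tk1, had a log2 FC of -0.05.

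Prim1 encodes the primase subunit that starts each new strand (chr10:128015168-128030037). It had 18.3, 22.7, 17.98, 22.4 and 20.6 CPM in the WT mice against 11.6, 16.9, 19.9, 11.8 and 16.9 CPM in the KSR23 mice, with KSR23 replicate 3 within the WT range. Here the log2 FC was -0.41 (SE 0.134, edgeR adjusted p = 0.0263, exact permutation p = 0.0397), and the call was lost in 6 of 19 alternatives. Pcna, the clamp that holds the polymerase on DNA (chr2:132249162-132253314), had 30.9, 34.3, 33.5, 37.1 and 30.3 CPM in the WT mice against 23.5, 29.8, 32.9, 22.4 and 28.1 CPM in the KSR23 mice. KSR23 replicate 3 lay within the WT range, replicate 2 just below it and the other 3 further down. The log2 FC was -0.29 (SE 0.0997, edgeR adjusted p = 0.0367, exact permutation p = 0.0317), and the call was lost in 8 of 19 alternatives. A processed copy leaves 76.3% of the windows of Pcna unique. The polymerase gene Pole, the flap endonuclease gene Fen1 and the methylation factor gene Uhrf1 had log2 FCs of -0.13, 0.20 and -0.03 and did not pass, and 20.1% of the windows of Fen1 are unique. Fen1 was called higher in 1 of the 19 alternatives, a fit with 1 mouse left out.

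Ccne2, cyclin E2, a partner of Cdk2 (chr4:11191351-11204779), was one of the scarcest members. It had 4.17, 3.85, 3.65, 5.10 and 3.20 CPM in the WT mice against 1.71, 2.70, 4.08, 2.34 and 2.73 CPM in the KSR23 mice, with KSR23 replicate 3 inside the WT range. The fitted log2 FC was -0.59 (SE 0.205, edgeR adjusted p = 0.0369, exact permutation p = 0.0317), and the call was lost in 10 of 19 alternatives. Ccne1, Cdk2 and E2f1 had log2 FCs of -0.18, -0.12 and -0.20 and did not pass.

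Of the D cyclins, which link growth signals to G1, Ccnd2 fell and Ccnd1 did not pass the test, and the difference between them was not tested. Ccnd2 (chr6:127125162-127152193) had 189.9, 174.7, 174.6, 200.03 and 176.0 CPM in the WT mice against 129.2, 135.5, 129.2, 136.8 and 147.9 CPM in the KSR23 mice. The groups were far apart, and KSR23 replicates 1 and 3 were the lowest KSR23 mice. Its mean of 183.0 ± 11.5 CPM fell to 135.7 ± 7.67 CPM, with a log2 FC of -0.43 (SE 0.0641, edgeR adjusted p = 5.52e-05, exact permutation p = 0.00794), and it was lower in all 19 alternatives. Ccnd1 (chr7:144929931-144939925) had 18.4, 17.1, 17.5, 15.4 and 17.1 CPM in the WT mice against 14.1, 15.7, 14.3, 16.1 and 18.4 CPM in the KSR23 mice. These groups overlapped broadly, and the log2 FC of -0.12 (SE 0.0930) did not pass (edgeR adjusted p = 0.364, exact permutation p = 0.175).

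The S phase and G2/M genes varied more among the KSR23 mice than among the WT mice, and both classes shared the highest KSR23 mouse but not the lowest. The SD of log2 CPM was larger among the KSR23 mice than among the WT mice for all 30 G2/M and all 26 S phase genes, against 51.6% of all genes tested. KSR23 replicate 3 was the highest KSR23 mouse for 27 of 30 G2/M and 23 of 26 S phase genes, against 21.1% of all genes. KSR23 replicate 1 was the lowest for 28 of 30 G2/M genes, and KSR23 replicate 4 for 17 of 26 S phase genes, against 20.5% and 19.0% of all genes. KSR23 replicate 1 was below every WT mouse for all 30 G2/M genes and replicate 4 for 28, while replicate 3 was below them all for 3 and above them all for 9.

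**Figure D4:**
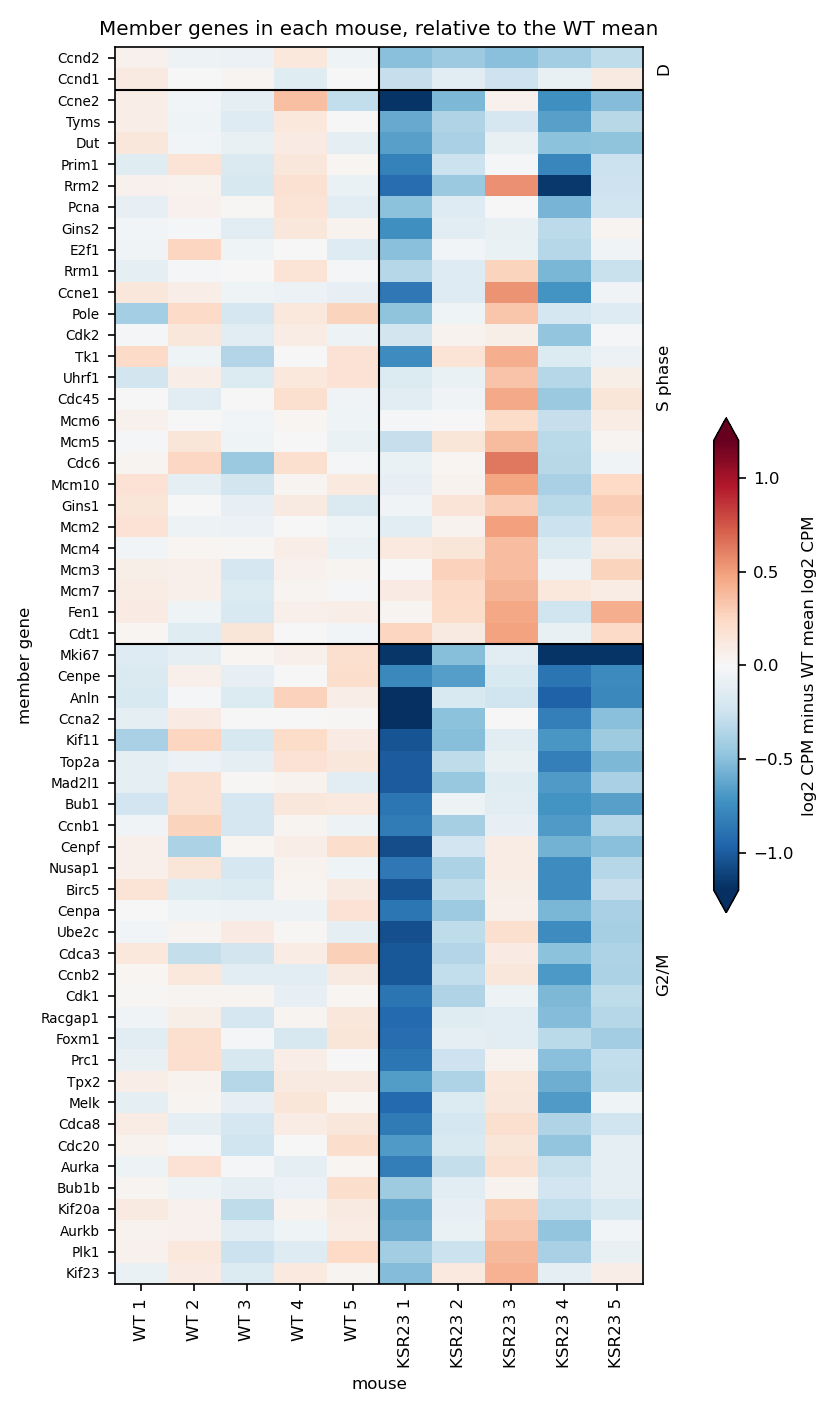
Log2 CPM of the 58 member genes in each mouse minus the WT mean of that gene, sorted by log2 FC within the D cyclins, S phase and G2/M. Blue fills most G2/M rows of KSR23 replicates 1, 2, 4 and 5. KSR23 replicate 3 lies on both sides of white there, with a median difference of 0.06, and is red over most S phase rows.

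Averaged over the 26 S phase genes, log2 CPM was 4.43, 4.45, 4.29, 4.51 and 4.39 in the WT mice against 4.07, 4.37, 4.69, 4.02 and 4.40 in the KSR23 mice. Averaged over the 30 G2/M genes, it was 4.77, 4.84, 4.68, 4.83 and 4.90 in the WT mice against 3.93, 4.52, 4.86, 4.21 and 4.45 in the KSR23 mice. In both classes the KSR23 mice reached from well below the WT range up to it, and in S phase beyond it. The difference of the averages within each library (S phase minus G2/M) was -0.34, -0.40, -0.38, -0.33 and -0.51 in the WT mice. It was 0.14, -0.16, -0.17, -0.19 and -0.05 in the KSR23 mice. Every KSR23 mouse, replicate 3 included, had a higher S phase level relative to G2/M than every WT mouse, with group means of -0.09 ± 0.138 and -0.39 ± 0.0720 (SD, n = 5 each). No test was made of these averages, since the members were chosen with results of these mice known.

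**Figure D5:**
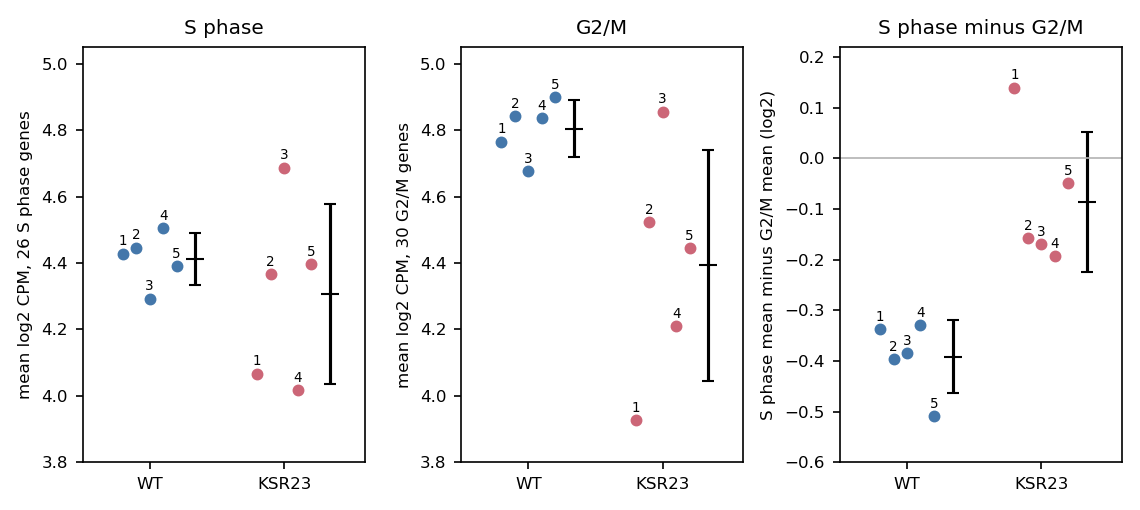
Mean log2 CPM of the S phase genes (left) and the G2/M genes (middle) in each mouse, and the difference of both means (right), numbered by replicate, with group mean and SD. The groups overlap in the first 2 panels and separate in the right one, with WT mice between -0.51 and -0.33 and KSR23 mice between -0.19 and 0.14.

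KSR23 replicate 3 stood apart in some other genes too. It had 76.4 CPM of the neutrophil gene S100a8, against 9.90 to 17.6 CPM in the other KSR23 mice and at most 8.42 CPM in the WT mice. The granule gene Mpo had 37.7 CPM there, against at most 9.39 CPM in the other KSR23 mice and 10.5 CPM in the WT mice. Of the 7 myeloid markers counted, 6 were higher in KSR23 mice, and the summed level was 624 CPM in replicate 3, 263 to 465 CPM in the other KSR23 mice and 213 to 282 CPM in the WT mice. The erythroid markers summed to 124 CPM in replicate 3, 20.8 to 37.95 CPM in the other KSR23 mice and 22.8 to 71.7 CPM in the WT mice, with Hba-a1, Hbb-bs and Hbb-bt at 0 counts in every library. No erythroid marker was called by edgeR or DESeq2 or passed an unadjusted p of 0.05. Of 8 lymphoid markers, with sums of at most 8.31 CPM, Cd3e was lower and Cd3g higher. The part of these cells in the cell cycle values of KSR23 replicate 3 was not tested. Without this library 26 G2/M and 7 S phase genes were lower, where 14.0% of all genes were, with median log2 FCs of -0.55 and -0.14. Rrm1 and Rrm2 were then lower as well (edgeR adjusted p = 0.00733 and 0.00133).

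Related genes outside the members were counted in the same way. Of 36 other mitotic genes, 16 were lower and none higher, 44.4% against 14.8% of all genes lower, with a median log2 FC of -0.35. DESeq2 gave 18 lower and none higher, 1 was higher at an unadjusted p under 0.05, and 10 were lower with libraries scaled by totals alone, without WT replicate 4 or without KSR23 replicate 4. In these 3 settings 1164 of 13882, 1651 of 13907 and 1696 of 13893 of all genes were lower, and with DESeq2 2267 of 13882. The largest falls were in 2 subunits of the Ndc80 complex, which ties kinetochores to microtubules. Spc25 had 46.7 ± 4.57 CPM in WT against 23.1 ± 6.08 CPM in KSR23 mice, which is a log2 FC of -1.03 (SE 0.135, edgeR adjusted p = 1.38e-05), and Spc24 had 25.96 ± 1.10 and 16.5 ± 4.04 CPM, a log2 FC of -0.66 (SE 0.129, adjusted p = 0.000784). Neither overlapped between the groups. All KSR23 mice lay below all WT mice for 5 of the 36 genes, Spc25 and Spc24 included, and for 8.74% of all genes tested. The spindle pole gene Aspm had a log2 FC of -0.64 (SE 0.210, edgeR adjusted p = 0.0272, exact permutation p = 0.0635), with WT mice from 6.95 to 14.9 CPM and KSR23 mice from 4.73 to 8.89 CPM, and its call was lost in 7 of 19 alternatives. Of 33 other licensing and replication genes, 4 were lower and none higher, 12.1% against 14.8% of all genes, with a median log2 FC of -0.13. DESeq2 gave 5 lower and none higher, and 1 was higher at an unadjusted p under 0.05. The lower count was 8 without KSR23 replicate 3 and 2 without WT replicates 1 and 2, where 1969 of 14036 and 1536 of 13982 of all genes were lower. Among the 4 were the polymerase alpha gene Pola1 (log2 FC -0.47), the kinase activator gene Dbf4 (-0.47) and the licensing inhibitor gene Gmnn (-0.41). In their promoters a CHR was found in 21 of 29 other mitotic promoters (72.4%), and in 4 of 28 other replication promoters (14.3%). The mean log2 CPM of the other replication genes minus that of the other mitotic genes overlapped between the groups, from 0.16 to 0.34 in WT and from 0.24 to 0.69 in KSR23 mice.

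Among 21 CDK inhibitor, pocket protein and p53 target genes, 6 were higher and 6 lower of the 20 tested, where 16.2% of all genes were higher and 14.8% lower. Gadd45g, a growth arrest gene, had 14.7 to 26.8 CPM in the WT mice and 59.6 to 106.6 CPM in the KSR23 mice, a log2 FC of 2.04 (SE 0.162, edgeR adjusted p = 2.72e-08). Gadd45b rose from 7.54 ± 0.788 to 12.9 ± 1.69 CPM (log2 FC 0.78, adjusted p = 5.32e-05), and both genes were higher in every KSR23 mouse. Cdkn2b, the Cdk4 and Cdk6 inhibitor p15, rose from 1.13 ± 0.416 to 2.18 ± 0.590 CPM (log2 FC 0.92, adjusted p = 0.0135), with overlap. The p21 gene Cdkn1a did not pass, at 48.1 ± 4.32 and 42.2 ± 8.19 CPM (log2 FC -0.19, adjusted p = 0.205). The p27 gene Cdkn1b was lower with overlap (log2 FC -0.59, adjusted p = 0.0299), a call lost in 7 of 19 alternatives, and the imprinted p57 gene Cdkn1c fell from 271 ± 28.2 to 210.1 ± 19.0 CPM without overlap (log2 FC -0.37, adjusted p = 0.00189). Cdkn2b was higher and Cdkn1c lower in all 19 alternatives. Of 19 other G1 kinase and transcription factor genes, 18 were tested and 2 were lower (11.1%, against 14.8% of all genes). These were E2f7 (log2 FC -0.57, adjusted p = 0.0207) and the Cdk1 inhibitor kinase gene Wee1 (log2 FC -0.24, adjusted p = 0.0191), with calls lost in 3 and 4 of the 19 alternatives. Myc, at 48.4 ± 6.39 and 48.7 ± 8.16 CPM, had a log2 FC of 0.01 (adjusted p = 0.942).

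Levels were compared between genes as CPM per kilobase of the longest coding transcript. In the WT pancreas they ran from 33.5 ± 3.26 for Rrm2 down to 0.861 ± 0.168 for Pole, with a median of 10.1. Next after Rrm2 stood Ccnd2 (28.9 ± 1.81), Ccnb2 (28.6 ± 2.43), Mcm6 (23.8 ± 0.722) and Cdc20 (22.7 ± 2.51). Of the 57 steps between neighbours in this order, 46 were smaller than the larger SD of the pair, so most neighbours cannot be ordered. Mki67, at 5.31 ± 0.513, was in the lower part of the order, since its CPM is divided by a transcript of 10.1 kilobases. In the KSR23 pancreas, Rrm2 (26.8 ± 13.3) and Fen1 (24.1 ± 4.71) and Mcm6 (24.0 ± 2.96) were the highest, and their spreads overlapped.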

How the data were processed

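RNA of whole pancreas was compared between 5 WT mice and 5 KSR23 mice of age P5. The authors primed 100 pg of RNA with oligo-dT, amplified it by PCR without molecular identifiers, mapped single-end reads of 75 bp with TopHat 2.1.0 (mm10), counted those with a unique alignment per gene by strict intersection (HTSeq 0.6.1p1), and deposited these counts without normalization. The strand setting is not given in the sources used here. The 5 tallies of unassigned alignments in each file were kept out of the library sizes.

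Genes that fell below 5 counts in any library were left out, and the others were tested with edgeR 4.0.16 (TMM, quasi-likelihood F test, Benjamini-Hochberg over 13882 genes, R 4.3.3), where the authors used the likelihood ratio test. The SE is the log2 FC divided by the square root of F, and log2 CPM used a prior count of 2. Single genes were also compared by exact permutation of log2 CPM over 252 assignments. Positions are GENCODE M21, and windows are 75-base pieces of the longest coding transcript. No library copies another: within a group, chi-square per degree of freedom between libraries started at 11.8. The labels do not say how replicates were taken beyond their numbers, so p-values measure the spread between these samples. The test was checked on simulated data with the same dispersion in both groups. The S phase and G2/M genes spread more in the KSR23 mice, so that check does not cover their setting.

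The members and lists were chosen with earlier results of these data known. All members could be named. Values in every mouse were given for Mki67, Top2a, Pcna, Mcm2, Ccnd1, Ccnd2, Ccnb1 and Cdk1 and for the 5 called genes per class with the largest log2 FC. Of the related lists, Cdkn1a, Cdkn1b, Cdkn1c, Myc and up to 3 of the largest called genes per list were given. For these a log2 FC was printed, and for some a mean with SD or a range. Alternatives tried were DESeq2 1.42.0, edgeR's likelihood ratio test, other scalings and filters, the replicate block and left-out mice. Jejunum libraries were not analysed here. The name and values of 1 called gene of the other replication genes are not reported here.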

Additional observations from a re-analysis of the deposited data

Results flagged for a closer look

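In all, 4 values lay far from the rest of their group by Dixon's test, out of 70 groups of 5 values looked at, where chance alone gives about 1 in 20. The Mcm2 level of WT replicate 1, 58.2 CPM, was above the 48.996 to 51.6 CPM of the other WT mice. The Cdk1 level of WT replicate 4, 41.4 CPM, was below the 44.9 to 45.5 CPM of the others. The Cenpe level of KSR23 replicate 3, 18.1 CPM, was above the 11.1 to 13.0 CPM of the other KSR23 mice. The mean log2 CPM of the D cyclins in WT replicate 1, 5.89, was above the 5.78 to 5.80 of the other WT mice.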

How the results depend on the processing

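In all 19 alternatives no G2/M gene was higher, and the S phase median stayed above the G2/M median, by 0.30 to 0.41. Other scalings shift all genes alike and could hardly move the difference between these medians. The lowest and highest differences came from fits with 1 mouse left out. With libraries scaled by totals alone, 9 G2/M and 2 S phase genes were lower, all genes split into 3072 higher and 1164 lower instead of 2250 and 2049, the median over all genes moved to a log2 FC of 0.09, and the S phase median was 0.05 instead of -0.04. With WT replicates 1 and 2 both left out, 9 of 30 G2/M and 2 of 26 S phase genes were lower, where 1536 of 13982 genes were. Leaving out each mouse in turn gave 11 to 26 lower G2/M genes and 2 to 7 lower S phase genes. Over all genes it gave 3497 to 4173 called genes, with 1651 to 1973 lower. The log2 FC of Mcm2 then ran from -0.010 to 0.18 and that of Myc from -0.073 to 0.095. Calls for 8 G2/M genes and for Tyms and Dut held in every alternative, and 29 G2/M genes kept a log2 FC below 0. How many calls over all genes held in every alternative was not counted. Deviations of same-numbered mice correlated between -0.11 and 0.07. This gave no sign of pairing by replicate number but cannot exclude a shared litter or preparation. With the replicate block 3749 genes were called in all, 19 G2/M and 4 S phase genes among them. The cause of these shifts was not tested, beyond there being fewer mice where mice were left out.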
